A study of Mus musculus with 6 samples.

Results

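Nuclear receptors are transcription factors that, in most cases, bind a small lipid-soluble ligand and switch target genes on or off. A group of 46 receptor genes was examined in the mouse mammary carcinoma line 4T1, chosen by their symbols from a fixed list. All 46 were present in the table of 56448 genes, and 21 of them had a mean of at least 1 TPM, a relative transcript level scaled by gene length and library total, over the 6 libraries, and these are called expressed here. The series compared 3 libraries labelled LV2 with 3 labelled in9. It describes a 4T1 line with stable, lentivirus-delivered knockdown of the microRNA miR-9 and a control, without stating which name is the control, what either construct holds, or whether each line is 1 clone or a pool. All cells were grown in serum-containing medium, with no receptor ligand or inhibitor named. Differences are therefore given as in9 minus LV2.

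Most receptors recognise variants of the core sequence AGGTCA. Thyroid hormone, retinoic acid, vitamin D, PPAR and LXR receptors bind it as heterodimers with a retinoid X receptor (RXR), whereas glucocorticoid and oestrogen receptors act as homodimers. Orphan receptors such as the REV-ERBs, COUP-TFs and oestrogen-related receptors have no classical hormone. In the normal mammary gland the oestrogen and progesterone receptors mark hormone-sensing luminal cells, and 4T1 is widely used as a hormone receptor-negative tumour model.

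The microRNA that the series targeted is printed below with its seed (bases 2 to 8) in capitals, because matches to that seed are how a direct target would be recognised. Its mature sequence is the same from all 3 loci in RefSeq (GRCm38.p6).

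miR-9-5p: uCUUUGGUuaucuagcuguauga

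Matches to the seed were the letters ACCAAAG or the shifted form CCAAAGA, which can overlap. They were looked for on the sense strand of every gene's longest 3′ UTR in the annotation. Of the 46 receptors 14 had a match, and of the 21 expressed receptors 4 did (19.0%), against 22.2% of the 10946 tested genes with an annotated 3′ UTR. The 4 expressed receptors with a match are shown on GRCm38 coordinates of GENCODE M21, with the matching bases in capitals.

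Ppard, chr17:28300269-28300293, plus strand: gacatgagccatCCAAAGAaacact

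Nr1d2, chr14:18204597-18204621, minus strand: tttgaaagtagcCCAAAGAtgagca

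Rxra, chr2:27760179-27760203, plus strand: taaagcctctttCCAAAGAtgccct

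Nr2c1, chr10:94196400-94196424, plus strand: ttatttgctacaACCAAAGcatttt

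Each of these 4 genes held 1 match of 7 bases. None of them was called as different between in9 and LV2, and none of the 3 receptors that were called had a match. Of the 10946 tested genes with an annotated 3′ UTR, 2433 had a match. Of those with a match 17 were called higher, and of all the rest 88 were. The receptor counts are too small to be told from those over all genes. The 3′ UTR ends used in 4T1 cells were not measured, and a match of these letters is a description of the sequence only.

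The expressed set was led by Ppard, which encodes the fatty acid sensor PPAR-delta, at a mean of 65.6 TPM, followed by Nr1h2 (the oxysterol receptor LXR-beta) at 46.025 TPM and Esrra (oestrogen-related receptor alpha, a regulator of mitochondrial genes) at 45.8 TPM. Of the 21 expressed receptors 14 had a mean of at least 10 TPM, 3 lay from 5 to 10 and 4 lay from 1 to 5. Because of that scaling these levels can be compared between genes. Nr1h2 and Esrra changed places with group: Nr1h2 was below Esrra in every LV2 library and above it in every in9 library.

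**Figure D1:**
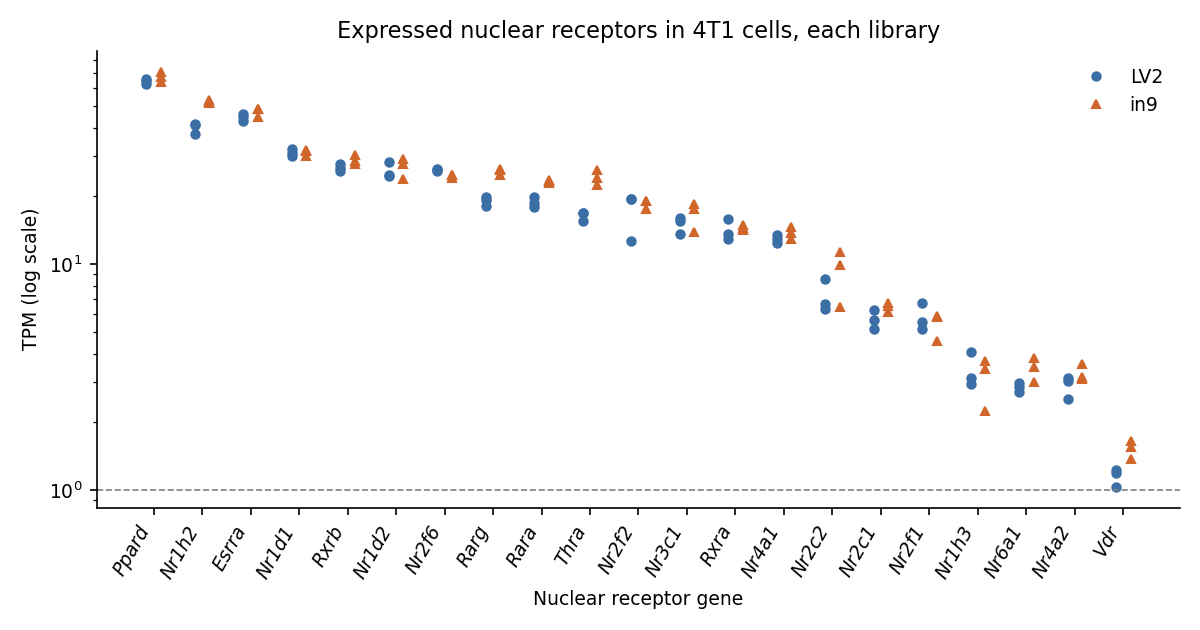
TPM on a log axis of the 21 expressed nuclear receptor genes in each LV2 library (circles) and each in9 library (triangles), ordered by their mean over the 6 libraries. Ppard was highest at 65.6 TPM and Vdr lowest at 1.33 TPM, just above the dashed line at 1 TPM.

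In some families 1 paralog held nearly all the transcripts, while in others the shares were closer to equal. Ppard made up 99.7% to 100% of the summed TPM of the 3 PPAR genes in each library. Pparg, the fat cell regulator, was at 0.00 TPM in every LV2 library and at 0.04, 0.20 and 0.05 TPM in in9, and Ppara, its liver counterpart, had no value above 0.07 TPM. Thra likewise made up 99.5% to 100% of the thyroid hormone receptor transcripts. Nr1h2 held 91.0% to 93.0% of the LXR transcripts in LV2 and 93.5% to 95.8% in in9, the rest being Nr1h3 (LXR-alpha). Among the RXRs, the shared heterodimer partners, Rxrb held 63.7% to 67.4% and Rxra the remainder, while Rxrg was listed at 0. Rarg and Rara contributed nearly equally, with Rarg at 49.2% to 51.8% of the retinoic acid receptor transcripts in LV2 and 51.9% to 52.9% in in9, and Rarb was listed at 0. Over the 6 libraries Nr1d1 held 51.93% to 56.98% of the REV-ERB transcripts. Nr2f6 held 49.21% to 59.61% of those of the COUP-TFs.

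The steroid receptors were represented by the glucocorticoid receptor gene Nr3c1 alone, at a mean of 15.8 TPM. The oestrogen receptor gene Esr1 was the member closest below the threshold, at 0.59, 0.90 and 0.78 TPM in LV2 against 0.68, 0.72 and 0.65 TPM in in9. Vdr, the vitamin D receptor gene, was the closest above it at 1.19, 1.03 and 1.23 TPM in LV2 against 1.54, 1.37 and 1.65 TPM in in9. The progesterone receptor gene Pgr was listed at 0 in all 6 libraries. Esr2 did not exceed 0.28 TPM and Nr3c2, the mineralocorticoid receptor gene, did not exceed 0.13 TPM.

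Altogether 25 receptors were below the threshold, none with a value above 0.9 TPM in any library. Of these, 11 were listed at 0 throughout: Rarb, Rora, Rorb, Nr1i2, Hnf4g, Rxrg, Nr2e1, Nr2e3, Esrrg, Pgr and Nr0b1. The other 14 were Esr1, the bile acid receptor gene Nr1h4 (mean 0.52 TPM), Nr4a3 (mean 0.333 TPM), Esr2, Nr3c2, Hnf4a, Esrrb, Nr1i3, Pparg, Nr5a1, Thrb, Ppara, Nr0b2 and Nr5a2, the last 11 with means of 0.112 TPM or less. The 8 of 8 housekeeping genes checked were above 0 in every library, which does not bear on zeros of less abundant genes. Sequencing depth is unknown, so a listed 0 does not bound the true level.

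Some of the receptors lie in paralogous clusters. On chromosome 11, Thra (chr11:98740638-98769006), Nr1d1 (chr11:98767932-98775333) and Rara (chr11:98927818-98974942) lie in 1 cluster, and all 3 were expressed at means of 20.2, 31.0 and 20.9 TPM. On chromosome 14 their paralogs Rarb (chr14:16430839-16819156), Thrb (chr14:17660261-18038090) and Nr1d2 (chr14:18204054-18239127) also lie near each other, in a different order. There only Nr1d2 was expressed, at 26.3 TPM, against 0.02 TPM for Thrb and 0 for Rarb. Promoter windows of 300 bases (250 before to 50 after the start, RefSeq GRCm38.p6) were read for 19 of the 21 expressed receptors and 23 of the other 25. The median GC content was 64.5% over the 28 windows of expressed receptors, 56.0% over the 35 windows of the others, and 52.7% over all 32851 windows. The GC box GGGCGG, searched on both strands, occurred in 57.1% of the windows of expressed receptors and in 35.7% of all windows. Counted per gene, it occurred for 13 of the 19 expressed receptors and 10 of the 23 others. The receptor core motif AGGTCA occurred in 17.9% and 16.3% of those windows, and per gene for 5 of 19 and 6 of 23. Some receptors had several windows, a few of them overlapping, so the windows are not independent.

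The comparison of in9 with LV2 asked which receptors differ when miR-9 is targeted. Thra, Rarg and Nr1h2, which encode the thyroid hormone receptor alpha, the retinoic acid receptor gamma and LXR-beta, were higher in in9, by 1.47, 1.35 and 1.30 times in mean TPM. No receptor was called lower. Genes were called at an adjusted p under 0.05 in limma after Benjamini-Hochberg adjustment over 13406 genes, and 0.821% of those genes were called higher and 0.194% lower, against 3 and 0 of the 21 receptors. At an unadjusted p under 0.05, 4 receptors were higher (19.0%) and none lower, where the shares over all genes were 13.6% and 5.86%. Replicate groups did not overlap for 7 receptors, 6 with in9 above LV2 (28.6%) and 1 below (4.76%), against 17.4% and 8.08% of all genes. The median log2 fold change of the 21 receptors was 0.13 and that of all tested genes 0.06. The share called higher was thus 14.3% of the receptors, resting on 3 genes, against 0.821% of all genes. For higher receptors, the unadjusted and non-overlapping shares were nearer to those of all genes. The difference in shares was not tested.

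**Figure D2:**
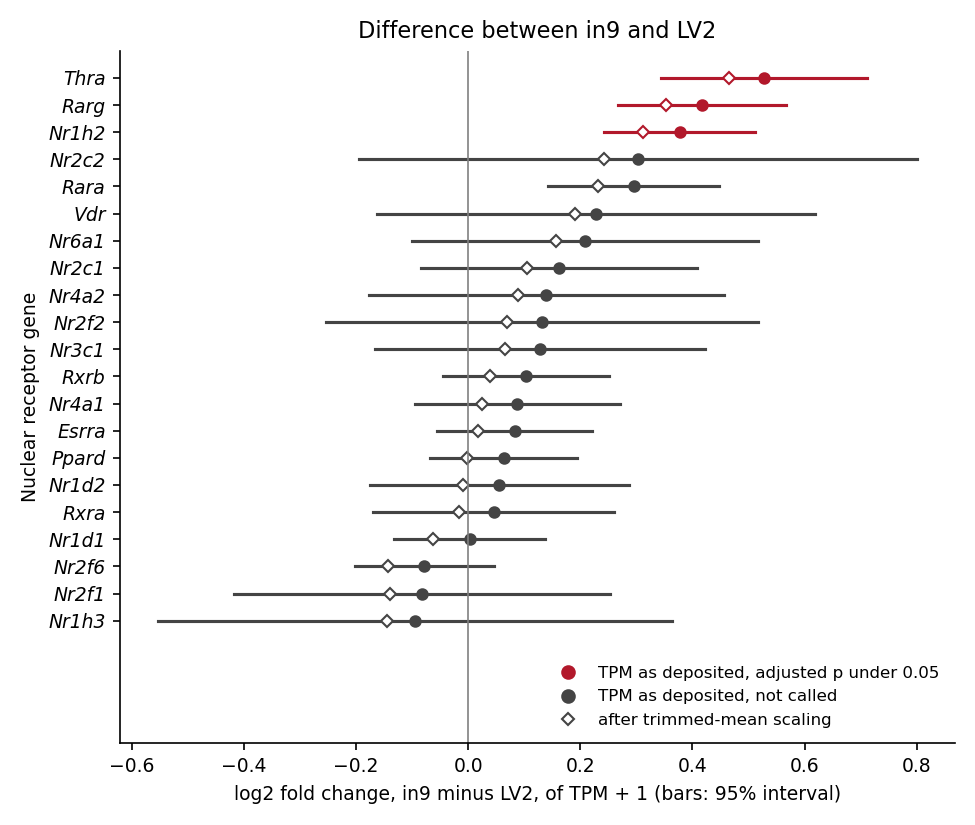
Log2 fold change of log2(TPM + 1), in9 minus LV2, with its 95% interval for each expressed receptor (filled circles) and the same after trimmed-mean scaling (open diamonds). Thra, Rarg and Nr1h2 (red) stand highest at 0.53, 0.42 and 0.38, and the filled circles of Ppard, Nr1d1, Nr1d2 and Rxra lie above 0 while their diamonds lie below it.

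Thra mediates much of the response to thyroid hormone. It was at 15.47, 16.77 and 16.81 TPM in LV2 against 22.32, 25.89 and 23.93 TPM in in9. The groups did not overlap, and in9 replicate 1 was the lowest of its group but still above every LV2 library. The log2 fold change was 0.53 ± 0.08 (SE, limma adjusted p = 0.0453). The 3′ end of Thra overlaps that of Nr1d1, which is transcribed from the opposite strand, over 1075 bases (chr11:98767932-98769006). Whether counting used the strand is not given in the sources used here, so reads from that stretch may not have been assigned to the right gene.

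Nr1d1 encodes the clock repressor REV-ERB-alpha. It was at 32.11, 30.88 and 29.95 TPM in LV2 against 31.56, 29.87 and 31.72 TPM in in9, with overlapping groups. Its log2 fold change was 0.00 with a 95% interval from -0.13 to 0.14. Its paralog Nr1d2 also overlapped between the groups, at 24.34 to 28.24 TPM in LV2 against 23.83 to 29.17 TPM in in9.

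Rarg, which encodes a retinoic acid receptor prominent in epithelia, was at 19.72, 18.00 and 19.05 TPM in LV2 against 24.64, 26.16 and 25.98 TPM in in9. All in9 libraries lay above all LV2 libraries. The log2 fold change was 0.42 ± 0.06 (SE, limma adjusted p = 0.0453). Rara, the second retinoic acid receptor gene, was at 19.83, 18.57 and 17.76 TPM in LV2 against 22.84, 23.26 and 23.43 TPM in in9. Its groups did not overlap either, but it missed the threshold (log2 fold change 0.30 ± 0.06 SE, adjusted p = 0.0845).

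Nr1h2 senses oxysterols and controls cholesterol efflux genes. It was at 41.37, 40.98 and 37.46 TPM in LV2 against 51.74, 51.50 and 53.10 TPM in in9, again without overlap (log2 fold change 0.38 ± 0.06 SE, limma adjusted p = 0.0453). Nr1h3, the second LXR gene, overlapped between the groups at 4.07, 3.11 and 2.94 TPM in LV2 against 3.43, 2.24 and 3.70 TPM in in9. Its log2 fold change was -0.09, with a 95% interval from -0.55 to 0.36. The difference between the paralogs' changes was not tested.

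**Figure D3:**
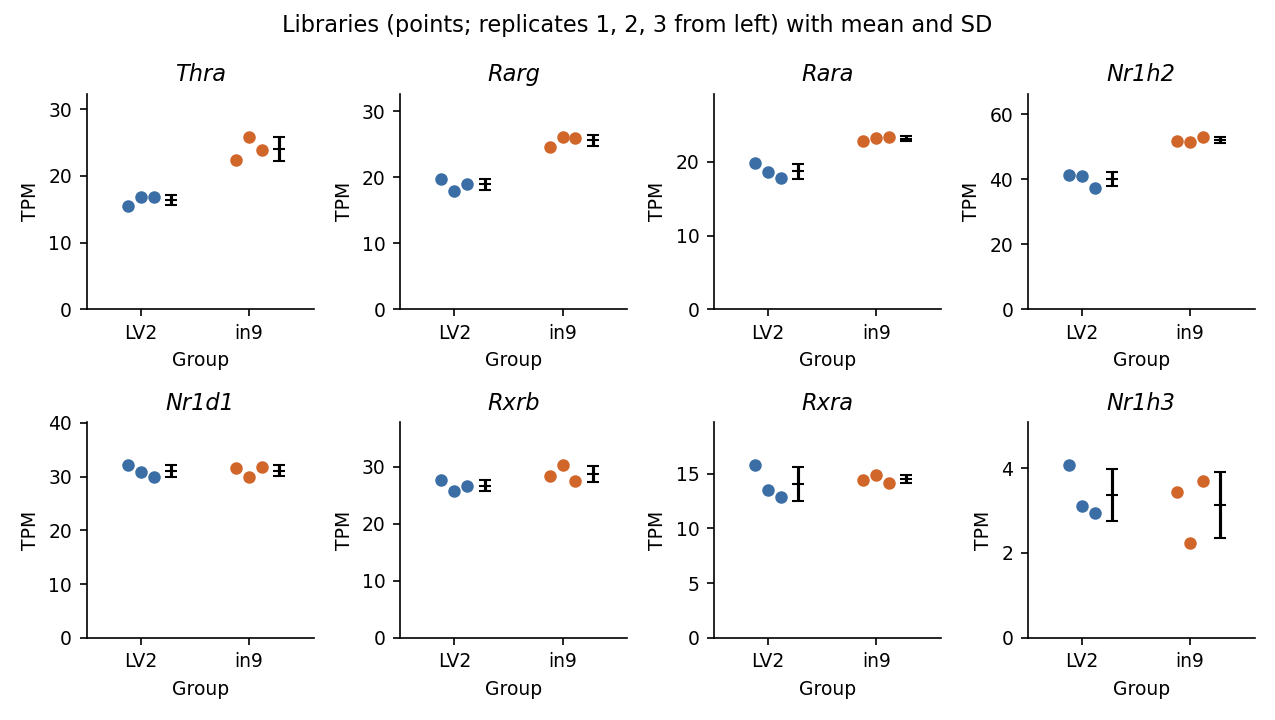
TPM on linear axes from 0 in each LV2 and in9 library (points), with the group mean and SD beside them, for 8 receptors. The groups do not overlap for Thra, Rarg, Rara and Nr1h2, and overlap for Nr1d1, Rxrb, Rxra and Nr1h3.

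These calls lay near the threshold. By unadjusted p, Thra ranked 83, Nr1h2 ranked 105 and Rarg ranked 112 among the 13406 genes. On the first principal component in9 replicate 1 was at -2.7, away from the 26.1 and 27.8 of its group and nearer to LV2 (-22.2 to -6.98). Without it Thra, Rarg and Nr1h2 were called again (adjusted p = 0.0193, 0.0233 and 0.0283), although 6.77% of all genes were then higher and 3.68% lower. None of the 3 was called when any other single library was left out (adjusted p from 0.117 to 0.211). Their log2 fold changes without 1 library ranged from 0.48 to 0.58 for Thra, 0.38 to 0.45 for Rarg and 0.33 to 0.40 for Nr1h2. After trimmed-mean scaling Rarg was still called (adjusted p = 0.0498), while Thra (0.0524) and Nr1h2 (0.0559) were not.

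The promoter windows of Rarg and Nr1h2 are printed because both were called higher in in9. Thra was called higher too, but no window was available for it. For Rarg the window at the upstream of its 2 starts is given, and the window at its second start held no match. Capitals mark matches on either strand to the receptor core motif AGGTCA, the GC box GGGCGG, the E-box CACGTG and the ETS-type motif CCGGAAG. The last was added to the search after the Nr1h2 sequence had been read.

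Rarg, chr15:102257473-102257772, minus strand: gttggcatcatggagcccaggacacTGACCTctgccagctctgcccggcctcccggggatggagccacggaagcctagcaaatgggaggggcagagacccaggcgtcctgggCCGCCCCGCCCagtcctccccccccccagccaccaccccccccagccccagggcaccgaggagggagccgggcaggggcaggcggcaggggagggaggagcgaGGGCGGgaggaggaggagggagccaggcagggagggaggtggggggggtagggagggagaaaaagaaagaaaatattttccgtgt

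Nr1h2, chr7:44553916-44554215, minus strand: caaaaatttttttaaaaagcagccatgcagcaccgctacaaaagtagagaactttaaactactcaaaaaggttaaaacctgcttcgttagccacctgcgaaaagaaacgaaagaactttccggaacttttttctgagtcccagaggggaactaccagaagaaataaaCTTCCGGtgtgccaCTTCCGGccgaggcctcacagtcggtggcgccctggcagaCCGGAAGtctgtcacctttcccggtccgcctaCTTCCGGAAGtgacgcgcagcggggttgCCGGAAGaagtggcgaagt

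The Rarg window held 1 match to AGGTCA and 3 to GGGCGG, with 70.0% GC. The Nr1h2 window held 6 matches to CCGGAAG, counting both strands and overlaps, and no match to the other 3 motifs. CCGGAAG occurred in 8.86% of all windows and CACGTG in 7.15%. No binding was measured here.

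The integrin gene Itgb7 (chr15:102215995-102231944) is a neighbour of Rarg, 2994 bases away, and was higher in in9 with a log2 fold change of 1.27 ± 0.15 (SE, limma adjusted p = 0.0296). It was the 1 gene called among the 20 other tested genes within 250 kb of Rarg. Near Thra 1 of 13 tested neighbours was called, the cytokine gene Csf3 at 37009 bases (log2 fold change 0.29, limma adjusted p = 0.0453). Near Nr1h2 none of 8 was called. Over all tested genes 0.821% were called higher and 0.194% lower. These neighbours were named after their values were seen.

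The RXR genes, whose products pair with the thyroid hormone, retinoic acid and LXR receptors, were not called. Rxrb was at 27.69, 25.81 and 26.57 TPM in LV2 against 28.40, 30.29 and 27.55 TPM in in9, with overlapping groups and a 95% interval of the log2 fold change from -0.04 to 0.25. Rxra was at 15.78, 13.50 and 12.86 TPM in LV2 against 14.41, 14.88 and 14.15 TPM in in9, with an interval from -0.17 to 0.26. The 4 genes Thra, Rarg, Rara and Nr1h2, grouped after their values were seen, summed to 91.1 to 96.4 TPM in LV2 against 122 to 127 TPM in in9. The RXR genes together summed to 40.7 ± 2.37 TPM in LV2 against 43.2 ± 1.77 TPM in in9 (SD, n = 3).

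Of the other ligand-regulated receptors, Ppard was at 62.69 to 65.58 TPM in LV2 against 63.58 to 70.84 TPM in in9, and its 95% interval ran from -0.07 to 0.19. Vdr lay higher in each in9 library than in any LV2 library (1.15 ± 0.106 against 1.52 ± 0.141 TPM, SD, n = 3) and was not called (log2 fold change 0.23 ± 0.16 SE, limma adjusted p = 0.475). Nr3c1 was at 15.44, 15.97 and 13.49 TPM in LV2 against 13.77, 18.32 and 17.52 TPM in in9, with a log2 fold change of 0.13. In9 replicate 1 lay with the LV2 libraries for Nr3c1 and was below the other in9 libraries.

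Among orphan receptors, Nr2f6, a COUP-TF relative, was the 1 member with in9 below LV2 in every library. It was at 25.99, 25.62 and 26.27 TPM in LV2 against 24.77, 24.79 and 24.07 TPM in in9, and was not called (log2 fold change -0.08, 95% interval from -0.20 to 0.05). Nr2f2 (COUP-TFII) was at 19.27, 19.30 and 12.66 TPM in LV2 against 19.00, 17.50 and 18.99 TPM in in9. LV2 replicate 3 was low, and without it the log2 fold change of 0.13 became -0.058. Nr2f1 overlapped between the groups, at 5.14 to 6.70 and 4.54 to 5.85 TPM. Esrra overlapped as well, at 42.88 to 46.02 and 44.51 to 48.52 TPM.

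Nr2c2, which encodes the orphan receptor TR4, had the widest interval of the receptors tested, from -0.19 to 0.80. It was at 8.53, 6.61 and 6.33 TPM in LV2 against 6.44, 9.87 and 11.33 TPM in in9. In9 replicate 1 fell among the LV2 libraries and the other in9 libraries lay above them. Its relative Nr2c1 was at 5.14 to 6.25 and 6.15 to 6.73 TPM. Nr6a1, the germ cell nuclear factor gene, did not overlap between groups, at 2.84, 2.98 and 2.70 TPM in LV2 against 3.01, 3.82 and 3.51 TPM in in9, but was not called (limma adjusted p = 0.415). The immediate early receptor genes Nr4a1 (12.36 to 13.44 and 12.91 to 14.60 TPM) and Nr4a2 (2.52 to 3.13 and 3.08 to 3.61 TPM) overlapped between the groups.

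Summed over all 46 receptors, the libraries held 416.95, 403.50 and 384.52 TPM in LV2 against 432.67, 450.62 and 461.49 TPM in in9. The group means differed by 46.6 TPM, and by 26.9 TPM after trimmed-mean scaling. As deposited, 31.0 TPM of the difference lay in Thra, Rarg, Rara and Nr1h2, which were grouped because they differed, so the remainder is smaller by that choice. The remaining 42 genes differed by 15.6 TPM between the group means, and by 0.965 TPM after trimmed-mean scaling, at 315 ± 6.95 TPM in LV2 against 316 ± 4.25 TPM in in9 (SD, n = 3).

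Lists of cofactors, targets and ligand-handling genes of these receptors were read in the same fit. Over all tested genes 13.6% were above and 5.86% below at an unadjusted p under 0.05. Of 8 tested LXR targets none was called; 3 were higher at an unadjusted p under 0.05, namely the desaturase gene Scd2 (log2 fold change 0.37), the phospholipid acyltransferase gene Lpcat3 (0.25) and the lipid transfer protein gene Pltp (0.42). The desaturase gene Scd1 was not among them (0.26). The efflux transporter gene Abca1, a classical LXR target, was at a mean of 0.04 TPM and was not tested. The list median was 0.17. Of 16 tested PPAR targets none was called, while 9 were above and 2 below at the unadjusted level of 0.05. These included the fatty acid oxidation genes Acadl (0.23), Acadm (0.37) and Cpt2 (0.33) among the higher and the fatty acid-binding protein gene Fabp5 (-0.27) and the lipid droplet gene Plin2 (-0.11) as the 2 lower ones.

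Of 14 listed genes of retinoic acid handling and response 3 were tested. The retinoic acid-degrading enzyme genes Cyp26a1 and Cyp26b1, which retinoic acid itself induces, had means of 0.0733 and 0.128 TPM. The retinol dehydrogenase gene Rdh10 was at 38.4 ± 2.17 TPM in LV2 against 34.1 ± 1.26 TPM in in9 (SD, n = 3), with a log2 fold change of -0.17, and was not called although its unadjusted p was under 0.05. Tgm2 (log2 fold change -0.08) and Dhrs9 (0.04) were the others tested. Of 12 genes of vitamin D and thyroid hormone handling and response 1 was tested, the corepressor gene Hr, at a log2 fold change of 0.16, and it was not called. The deiodinase gene Dio2 was at 0.0633 TPM and the vitamin D hydroxylase gene Cyp24a1 at 0.0167 TPM on average.

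Of 12 tested glucocorticoid receptor targets 2 were called higher in in9 and none lower. The 2 were Lcn2 (log2 fold change 1.05 ± 0.07 SE, limma adjusted p = 0.00472) and the transcription factor gene Cebpd (0.72 ± 0.10, limma adjusted p = 0.0453), both also known to respond to cytokines. Over all tested genes 0.821% were called higher and 0.194% lower. There were 6 of the 12 above at an unadjusted p under 0.05, against 13.6% of all genes, and none below. The call of Lcn2 was lost without LV2 replicate 3 (0.0543), and that of Cebpd without any library but in9 replicate 1. The glucocorticoid-induced genes Fkbp5 (0.06), Tsc22d3 (0.31), Klf9 (0.30), Sgk1 (0.29) and Dusp1 (0.32) were not called, the last 4 being the others above at that level. The list median was 0.22 against 0.06 over all tested genes.

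None of 23 tested coactivator and corepressor genes was called, and 3 had an unadjusted p under 0.05. Those above were Lcor (0.24) and Sin3a (0.31) and the gene below was Carm1 (-0.30), a methyltransferase that acts as a coactivator. Ncoa7 had a log2 fold change of 0.34. The PPAR coactivator gene Ppargc1a was at a mean of 0.015 TPM. None of 11 steroid receptor chaperone genes was called, with Bag1 (0.18) and St13 (0.21) higher and Dnajb1 (-0.29) and Ppid (-0.11) lower at an unadjusted p under 0.05. None of 15 tested clock genes was called, and those higher at that level included Csnk1d (0.22) and Per3 (0.46). Csnk1e had a value of 0.13. In the oestrogen and progesterone response list 6 of 16 genes were tested and none was called. Areg (0.19) was higher and Ccnd1 (-0.17) lower at an unadjusted p under 0.05, while Xbp1 (0.10) and Igfbp4 (0.05) were not. None of 12 tested targets of the oestrogen-related receptors was called. At that level the mitochondrial genes Sdha (0.15), Atp5b (0.19) and Cs (0.10) were among those above, and the cytochrome c gene Cycs (-0.16) was below.

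**Figure D4:**
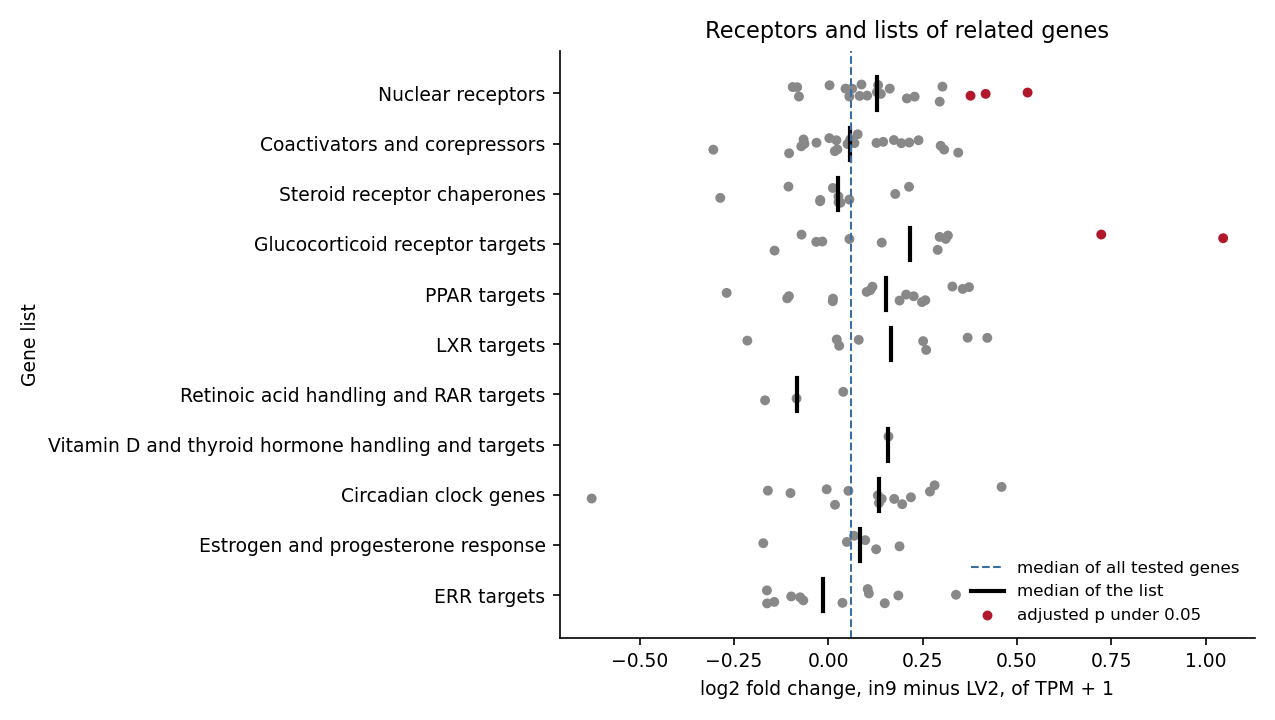
Log2 fold change of log2(TPM + 1), in9 minus LV2, of each tested gene (points) in the receptor group and in 10 lists of cofactors, targets and ligand-handling genes, with list medians (black bars) and the median of all tested genes (dashed line at 0.06). Called genes (red) are Thra, Rarg and Nr1h2 among the receptors and Lcn2 and Cebpd among the glucocorticoid receptor targets.

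The tissue label was checked against markers. Epithelial markers were all detected and summed to 2343 to 2397 TPM in LV2 against 2242 to 2299 TPM in in9. The summed fibroblast markers were 4.74 to 6.76 TPM in LV2 against 7.95 to 8.43 TPM in in9, and the leukocyte markers 45.7 to 50.3 and 50.6 to 57.2 TPM. The endothelial markers summed to 1.72 to 1.95 and 1.97 to 2.17 TPM, and the adipocyte markers to no more than 0.28 TPM. Of the 7 fibroblast markers 1 was tested, Pdgfra, and Lum was listed at 0 in all libraries, with Col1a1 at no more than 0.23 TPM. Of the 7 leukocyte markers 2 were tested, Cd68 and Cd14, and Adgre1 was listed at 0, with Ptprc at no more than 0.12 TPM. Of the tested fibroblast and leukocyte markers, Pdgfra was higher in in9 (4.56 to 6.52 TPM in LV2, 7.71 to 8.31 TPM in in9). Cd68 lay higher as well (27.48 to 28.77, then 33.55 to 40.56 TPM) and Cd14 lower (17.57 to 21.46, then 15.82 to 16.96 TPM). The groups did not overlap for these 3 genes. Among the epithelial markers Epcam (43.85 to 47.65, then 35.87 to 38.11 TPM), Krt8 and Krt18 lay lower without overlap. Cdh1, Krt7 and Krt19 overlapped. The endothelial marker Cdh5 (1.46 to 1.62, then 1.65 to 1.81 TPM) lay higher without overlap. Over all tested genes 17.4% lay above and 8.08% below without overlap. None of these markers was called, and their part in the receptor results was not tested. In bulk RNA fewer cells of a type and less RNA per cell cannot be told apart.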

How the data were processed

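Messenger RNA of cultured 4T1 cells was sequenced in 3 LV2 and 3 in9 libraries. The authors deposited 1 table of TPM with 2 decimals. The build was mm10 per the submitters' processing notes, while for aligner and quantifier nothing is given in the sources used here. TPM keep no depth, so depth and counting error are unknown. The deposited group means equalled the library means within 3.33e-05, and no libraries were identical. Whether the replicates were separate cultures is not stated, and p-values then reflect the spread among these libraries, which may be technical.

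The 13406 genes averaging 1 TPM or more were fitted as log2(TPM + 1), two-sided and without a replicate block, by limma 3.58.1 (R 4.3.3), its variance prior following intensity. Fold changes on this scale understate those of low genes. Benjamini-Hochberg adjustment covered all genes tested. The receptors and the 10 gene lists were chosen with earlier results of these data known. Every expressed receptor was named, and of each list the called genes and up to 4 with the smallest p-values. Some other list genes, mostly low ones, were named after their values were seen. Some list genes that the rule would name are not reported here. The fit was tested on simulated data. Alternatives were a pseudocount of 0.1, other filters, trimmed-mean scaling (30% of M, 5% of A), quantile normalization, no trend, library weights, a replicate block and leaving out each library. Sequences came from RefSeq (GRCm38.p6) and GENCODE M21, and tables were made with python 3.11.15 and pandas 2.3.3.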

Additional observations from a re-analysis of the deposited data

How the results depend on the processing

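The number of expressed receptors was 21 without any single library, 23 at a mean TPM of at least 0.5 and 17 at 5. The counts below are higher and then lower genes in limma, 110 and 26 over all genes, 3 and 0 among the receptors and 2 and 0 among the list genes. Over all genes they were 24 and 6 without a filter, 27 and 4 without the intensity trend, 1166 and 523 with library weights, 150 and 45 at a mean TPM of at least 5, and 4 to 908 and 1 to 494 without 1 library, the most without in9 replicate 1. Receptors called higher were 3 with a pseudocount of 0.1, at a mean TPM of at least 5 and without in9 replicate 1, 4 with library weights (Rara was added, adjusted p = 0.0237), 2 after quantile normalization, 1 after trimmed-mean scaling, 0 without a filter and 0 without the trend, and 0 to 3 without 1 library. List genes were 20 and 5 with library weights, 1 and 0 without a filter or the trend, 3 and 0 at a mean TPM of at least 5, and 0 to 13 and 0 to 5 without 1 library. Without in9 replicate 1 and with trimmed-mean scaling, an alternative chosen after seeing the data, 440 and 817 genes were called, 3 receptors and 5 and 12 list genes.

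Same-numbered libraries had deviations correlated at -0.0969, 0.0223 and -0.0461 across genes, which gave no sign of pairing by replicate number. Whether same-numbered libraries were prepared together is not stated. With a replicate block 1 gene was higher and 1 lower, and 0 receptors and 0 list genes were called.

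Among the receptors and named list genes, signs turned only where a gene was uncalled. After trimmed-mean scaling Ppard was at -0.00287, Nr1d1 at -0.062, Nr1d2 at -0.00899, Rxra at -0.017, Dhrs9 at -0.025, Fkbp5 at -0.00904 and Igfbp4 at -0.018. After quantile normalization Nr1d1 was at -0.067, Nr1d2 at -0.011, Rxra at -0.043, Dhrs9 at -0.031 and Fkbp5 at -0.013. With library weights Nr1d1 was at -0.00726 and Nr2f1 at 0.0113. Trimmed-mean scaling without in9 replicate 1 gave -0.032 for Esrra, -0.10 for Nr1d1, -0.040 for Rxra, -0.090 for Igfbp4 and -0.00419 for Xbp1. Without 1 library the values ranged from -0.020 to 0.030 for Nr1d1, -0.0036 to 0.14 for Nr1d2, -0.058 to 0.23 for Nr2f2, -0.011 to 0.13 for Rxra, -0.15 to 0.018 for Nr2f1, -0.20 to 0.070 for Nr1h3 and -0.040 to 0.16 for Dhrs9. The cause was not tested.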
